A study of Caenorhabditis elegans with 9 samples.

Results

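Whole Caenorhabditis elegans adults given nicotinic acid were compared with adults given 1-methylnicotinamide (MNA). The comparison took every library labelled with either compound, which gave 6 of the 9 libraries of the study, 3 a side. The other 3 libraries came from worms on water plates, the solvent control, and served only to show on which side a difference lay. All worms were harvested 48 hours after the L4 stage, the last larval stage, from agar plates of a shared batch of medium; the labels name no strain or genotype. MNA was given at 1 µM. For nicotinic acid the labels disagree: the sample source gives 1 mM and the treatment text 1 nM. On either reading the 2 compounds were not given at a matched dose, so a difference between the groups cannot be assigned to the structure of the molecules. The labels do not say whether replicates were separate cultures, so the p-values rest on sample-to-sample spread that may be technical.

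Nicotinic acid is a pyridine ring with a carboxylic acid group, and it is taken up into NAD, the electron carrier, by way of the Preiss-Handler pathway. MNA is the amide of that acid with a methyl group on the ring nitrogen. Cells make it from nicotinamide, the product that sirtuins and other NAD consumers release, by transfer of a methyl group from S-adenosylmethionine. Worms deal with foreign small molecules in stages. Cytochrome P450 enzymes, flavin-containing monooxygenases and short-chain dehydrogenases oxidise or reduce them, glutathione S-transferases and UDP-glucuronosyltransferases attach glutathione or a sugar, and ABC transporters carry molecules across membranes. The intestine is a main site of this chemistry, and it also secretes immune effectors such as C-type lectins and proteins with a CUB-like domain.

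Library totals ran from 18501261 counts in nicotinic acid replicate 2 to 31247605 in nicotinic acid replicate 3, and the detection floor of 3 counts therefore lies at 0.096 to 0.1622 CPM (reads of a gene relative to the normalised size of its library). Floors cover counting error only. In the 6 compound libraries the first principal component held 48.9% of the variance and separated the groups: the nicotinic acid libraries lay at -22.2, -18.2 and -21.8, and the MNA libraries at 26.7, 29.4 and 6. MNA replicate 3 therefore stood apart from its group and nearer to nicotinic acid. Nicotinic acid replicate 1 stood apart on the second component (19.3% of the variance), at 26.7 against -18.8 and -7.4. Yolk protein genes, which mark the gut of the adult hermaphrodite, took 4.936% to 7.172% of the counts in all 9 libraries.

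Between the compounds 198 of 13985 genes tested passed an adjusted p of 0.05, which is 1.42% (edgeR quasi-likelihood test, two-sided, Benjamini-Hochberg over all genes tested). Of these, 154 were higher with MNA (1.1% of the genes tested) and 44 were higher with nicotinic acid (0.315%). The difference was at least 2-fold in 88 of the 154 and in 17 of the 44, and the median size was 1.24 and 0.68 on the log2 scale. In all 198 genes the libraries of the groups did not overlap, while over all genes tested this held for 9.79% with MNA higher and 9.3% with nicotinic acid higher. The 198 were selected by a small p in this same comparison, so their lack of overlap is no added support for the calls. The median log2 fold change of all genes tested was -0.003. Throughout, log2 fold changes are of MNA over nicotinic acid unless said otherwise, so a positive value is higher with MNA. DESeq2 called 259 genes higher with MNA (1.85%) and 135 higher with nicotinic acid (0.965%). An unadjusted edgeR p below 0.05 was reached by 13.6% of the genes tested, 7.2% higher with MNA and 6.36% higher with nicotinic acid. The unadjusted counts given for lists are to be read against these shares. Counts of list members past the threshold are to be read against 1.1% and 0.315%.

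**Figure D1:**
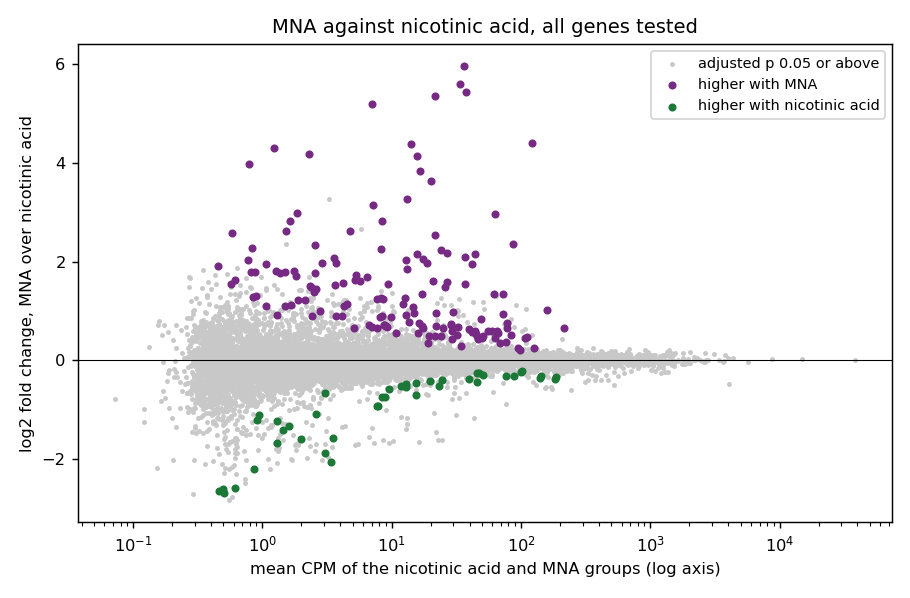
Each point is 1 of the 13985 genes tested, with its mean CPM over the nicotinic acid and MNA libraries on a log axis and its log2 fold change of MNA over nicotinic acid. The 154 genes higher with MNA (purple) reach 5.96, while the 44 higher with nicotinic acid (green) stay above -2.7 and those below -2 sit mostly near 1 CPM or less.

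The water libraries placed most of the genes higher with MNA on the MNA side. On a scale where 0 is the nicotinic acid mean and 1 the MNA mean (log2 CPM), water lay between -0.25 and 0.25 for 102 of the 154 genes, below that for 15, between 0.25 and 0.75 for 31, near MNA for 4 and beyond MNA for 2. For the 44 genes higher with nicotinic acid it lay near or beyond MNA for 14 and 9, in between for 13, near nicotinic acid for 6 and beyond it for 2. Against water itself, 7.41% of the genes tested passed for MNA and 5.34% for nicotinic acid (edgeR, adjusted p). All 3 comparisons share libraries, so the values against water are given side by side and not as separate support.

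MNA replicate 3 was the MNA library nearest to the nicotinic acid mean in 148 of the 154 genes (96.1%) and in 35 of the 44 (79.5%), against 48.4% of all genes tested. Its median position between the nicotinic acid mean (0) and the mean of the other MNA libraries (1) was 0.64 and 0.59. Without it the counts were 258 higher with MNA and 160 higher with nicotinic acid. Leaving out MNA replicate 1 left 85 and 1, and MNA replicate 2 left 75 and 1. The counts were 107 and 20 without nicotinic acid replicate 1, 94 and 28 without replicate 2, and 89 and 33 without replicate 3. Without water replicate 3 they were 134 and 27. In every one of the 9 fits without 1 library 69 of the 154 genes kept their call, but only 1 of the 44 did, nrf-6, a membrane protein gene known for fluoxetine resistance, which was chosen after its values were seen. It was at 87.9, 84.9 and 83.5 CPM with nicotinic acid and 67.4, 66.8 and 71.3 CPM with MNA (log2 fold change -0.32, edgeR adjusted p = 0.0025).

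**Figure D2:**
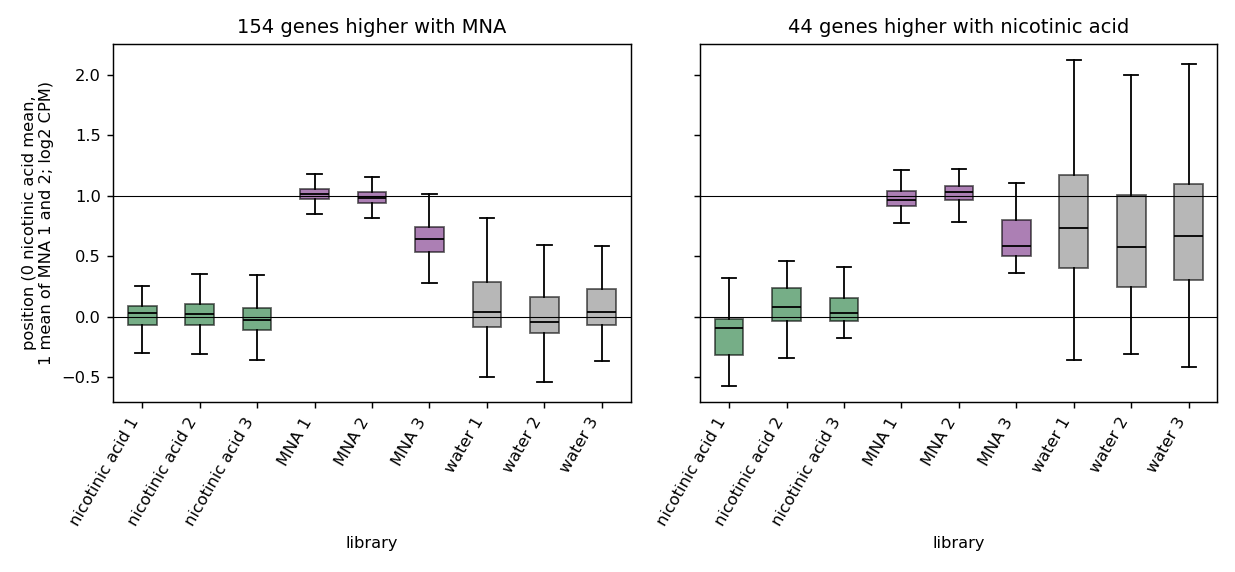
Boxes give, for each of the 9 libraries, the position of the 154 genes higher with MNA (left) and the 44 higher with nicotinic acid (right) on a scale of log2 CPM where 0 is the nicotinic acid mean and 1 the mean of MNA replicates 1 and 2; the line is the median, the box the quartiles, and the whiskers reach to 1.5 box lengths. The boxes of MNA replicate 3 lie at 0.64 and 0.59, the water boxes lie near 0 on the left and spread widely on the right.

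Conjugating enzymes held 3 of the 4 largest differences. In the glutathione S-transferase family, gst-35 (Y1H11.2) was at 1.5, 0.855 and 0.965 CPM with nicotinic acid, at 95, 77.3 and 41.1 CPM with MNA, and at 0.719, 0.549 and 1.07 CPM with water. The lowest MNA library, replicate 3, was still far above every nicotinic acid and water library. Its log2 fold change was 5.96 (SE 0.43, edgeR adjusted p = 0.00144), a 62.4-fold difference. Against water it was 6.48 for MNA (edgeR adjusted p = 0.000764) and 0.52 for nicotinic acid (edgeR adjusted p = 0.772). A second family member, gst-21 (ZK697.6), had 1.3, 1.82 and 1.13 CPM with nicotinic acid and 92, 66.8 and 40 CPM with MNA (log2 fold change 5.59, SE 0.39, edgeR adjusted p = 0.000964). In water it had 1.17, 0.929 and 1.07 CPM, which overlaps the nicotinic acid range.

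Of 39 glutathione S-transferases tested, 9 were higher with MNA, 0 were higher with nicotinic acid and 30 did not pass; the family median was 0.11. At an unadjusted p below 0.05, 16 were higher with MNA and 3 with nicotinic acid (7.2% and 6.36% of all genes tested), and DESeq2 called 10 and 1. The members beside gst-35 and gst-21 were gst-38, gst-5, gst-6, gstk-1, gst-4, gst-7 and gst-13, with log2 fold changes from 0.45 in gst-13 to 1.69 in gst-38. Smaller in size but tight between libraries, gst-5 (R03D7.6) was at 19.4, 21.4 and 19.5 CPM with nicotinic acid and 44.8, 41.3 and 33.1 CPM with MNA (0.98, SE 0.10, edgeR adjusted p = 0.00054). Its relative gst-6 (F11G11.3), was at 15.4, 14.4 and 15.2 against 31.4, 29 and 26.6 CPM (0.95, SE 0.10, edgeR adjusted p = 0.00054). In both genes the water libraries, at 15.7 to 17.7 and 9.75 to 12.9 CPM, lay below every nicotinic acid library. Calls were lost for gst-7 without nicotinic acid replicate 1 or 2 or MNA replicate 2 (highest adjusted p = 0.061 in edgeR) and for gst-13 without any 1 nicotinic acid library or MNA replicate 1 or 2 (0.105). Reads of close relatives within this and the other families may have been split or shared, and how they were assigned is not stated.

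Sugar-transferring enzymes were next. The UDP-glucuronosyltransferase gene ugt-37 (F10D2.6) was at 1.3, 0.748 and 0.965 CPM with nicotinic acid, 52, 50.7 and 24.2 CPM with MNA, and 1.08, 0.676 and 0.773 CPM with water (log2 fold change 5.35, SE 0.38, edgeR adjusted p = 0.000757). Among 60 family members tested, 7 were higher with MNA and 1, ugt-17, was higher with nicotinic acid (-0.37). The shares of all genes tested were 1.1% and 0.315%. In the family 52 did not pass and the median was 0. Below an unadjusted p of 0.05 there were 13 and 10 (7.2% and 6.36% of all genes tested), and DESeq2 called 9 and 3. The others higher with MNA were ugt-21 (2.18), ugt-14 (1.79), ugt-16 (1.54), ugt-8, ugt-25 (0.87) and ugt-44 (0.59). For ugt-44 the difference lay on the other side: water was at 77.7, 74.4 and 77.1 CPM, within the MNA range of 66 to 88.2 CPM and above the nicotinic acid range of 45.7 to 56.3 CPM. Without nicotinic acid replicate 1 or MNA replicate 2 there were 4 family members higher with MNA, and ugt-17 lost its call without nicotinic acid replicate 2 or 3, MNA replicate 1 or 2, or water replicate 3 (highest adjusted p = 0.233 in edgeR). Without MNA replicate 3 there were 3 members higher with nicotinic acid, and without water replicate 1 there were 2. The calls of ugt-14, ugt-25 and ugt-44 did not hold without nicotinic acid replicate 1 or MNA replicate 2, nor without 1 or more other libraries (highest adjusted p = 0.219, 0.139 and 0.129 in edgeR).

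**Figure D3:**
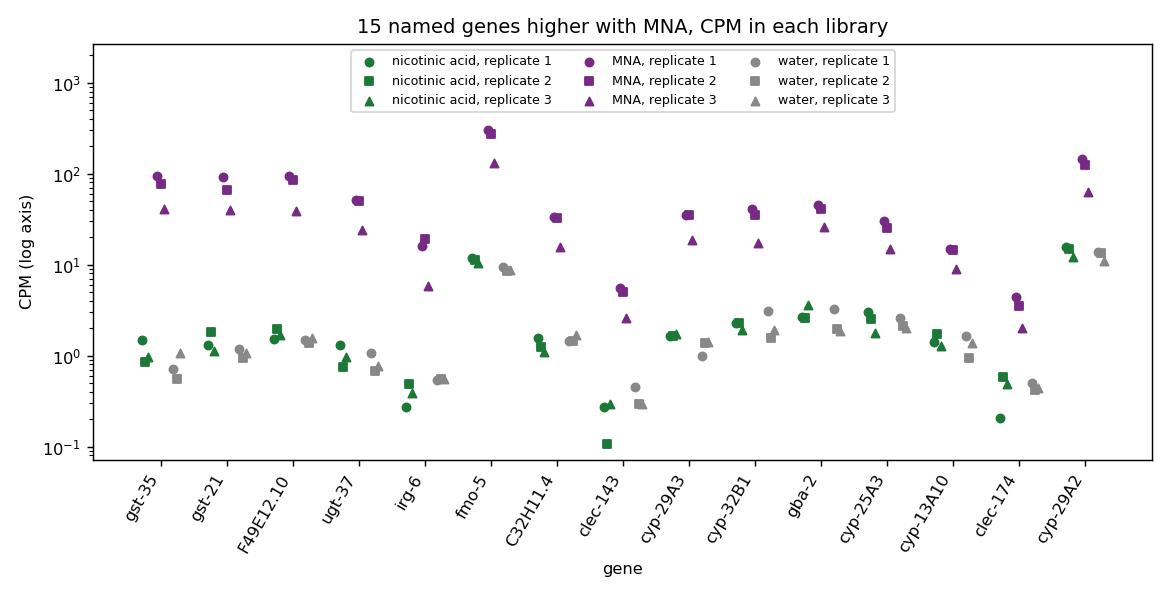
CPM on a log axis of the 15 named genes with the largest log2 fold changes higher with MNA, 1 point per library, with the groups by colour and the replicates by shape. In all 15 genes the MNA libraries lie above every nicotinic acid and water library, and MNA replicate 3 (purple triangle) is the lowest of its group.

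Oxidising enzymes made up the next group. Among the flavin-containing monooxygenases, fmo-5 (H24K24.5) was at 11.9, 11.2 and 10.3 CPM with nicotinic acid, 299, 270 and 132 CPM with MNA, and 9.53, 8.49 and 8.68 CPM with water. Its log2 fold change was 4.39 (SE 0.35, edgeR adjusted p = 0.00256), a 21-fold difference. It was the only 1 of 5 family members that passed, though 2 passed without water replicate 1 and with the 6 compound libraries alone.

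Of 64 cytochrome P450 genes, which encode heme oxidases, 9 were higher with MNA and 0 were higher with nicotinic acid (1.1% and 0.315% of all genes tested). In this family 55 did not pass and the median was 0. DESeq2 called 12 and 3, and below an unadjusted p of 0.05 there were 17 and 8 (7.2% and 6.36%). cyp-29A3 (Y38C9B.1) was at 1.64, 1.66 and 1.74 CPM with nicotinic acid, 35.5, 34.7 and 18.6 CPM with MNA and 0.989, 1.39 and 1.4 CPM with water (4.13, SE 0.27, edgeR adjusted p = 0.000144). The smallest p of the family belonged to cyp-13A10 (ZK1320.4), at 1.4, 1.71 and 1.29 against 15, 14.6 and 8.96 CPM (3.15, SE 0.24, edgeR adjusted p = 8.85e-05). Others were cyp-32B1 (3.84), cyp-25A3 (3.27), cyp-29A2 (2.96), cyp-33C2 (2.62), cyp-25A2 (2.1), cyp-25A1 (2.05) and cyp-37A1 (1.49). The 3 cyp-25A genes sit next to each other on chromosome III in the gene order of the reference. Without nicotinic acid replicate 2 or 3, and when the 6 compound libraries were fitted alone, 5 P450 genes passed; cyp-29A2, cyp-25A2, cyp-25A1 and cyp-37A1 lost their calls without any 1 of the nicotinic acid libraries, the last 2 also without MNA replicate 2 or water replicate 3 and cyp-37A1 without MNA replicate 1 or water replicate 2 (highest adjusted p = 0.06, 0.0607, 0.0859 and 0.189 in edgeR).

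Short-chain dehydrogenases, which reduce or oxidise carbonyl and alcohol groups, had 8 of 35 higher with MNA and 0 higher with nicotinic acid, with a median of 0.1. The shares of all genes tested were 1.1% and 0.315%. DESeq2 called 10 and 0, and 13 and 1 were below an unadjusted p of 0.05 (7.2% and 6.36% of all genes tested). dhs-20 (F35B12.2) was at 1.34 ± 0.0947 CPM (SD, n = 3) with nicotinic acid and at 10.1, 9.73 and 4.76 CPM with MNA (2.61, SE 0.27, edgeR adjusted p = 0.000643). dhs-2 (F55A12.4) was at 8.63, 7.64 and 8.85 against 47, 45.6 and 25.7 CPM (2.23, SE 0.23, edgeR adjusted p = 0.00239). The rest ran from dhs-9 at 0.44 to dhs-19 at 2.36, of which dhs-19 lost its call without any 1 nicotinic acid library (highest adjusted p = 0.0556 in edgeR) and dhs-9 without nicotinic acid replicate 3 or MNA replicate 1 or 2 (0.179). The family had 5 members past the threshold without nicotinic acid replicate 1 or 2 or MNA replicate 1 or 2, and 4 without nicotinic acid replicate 3.

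Of 45 ABC transporters tested, 0 were higher with MNA and 1, pmp-5, was higher with nicotinic acid (1.1% and 0.315% of all genes tested). At an unadjusted p below 0.05 the counts were 5 and 6 (7.2% and 6.36%), and DESeq2 called 1 and 3. pmp-5 (T10H9.5), a relative of peroxisomal transporters, was at 169, 154 and 149 CPM with nicotinic acid, 114, 121 and 136 CPM with MNA and 139, 145 and 144 CPM with water (-0.35, SE 0.06, edgeR adjusted p = 0.0175). Its call was lost without nicotinic acid replicate 1 or 2 or MNA replicate 1 or 2 (highest adjusted p = 0.129 in edgeR). Without MNA replicate 3 there were 3 members higher with nicotinic acid.

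Redox genes showed smaller differences. SKN-1, the worm relative of the NRF factors, drives many glutathione and oxidative stress genes. Of 32 such genes tested, 7 were higher with MNA, 0 were higher with nicotinic acid and the median was 0.09; DESeq2 called 9 and 0, and the list shares gst-4, gst-13 and gst-38 with the transferase family. Below an unadjusted p of 0.05 there were 11 and 1. gst-4 (K08F4.7), a widely used SKN-1 reporter, was at 16.1, 17.5 and 16.5 CPM with nicotinic acid, 26.6, 29.5 and 25.1 CPM with MNA and 10.9, 14.9 and 14.7 CPM with water (0.70, SE 0.11, edgeR adjusted p = 0.00569). Its levels with nicotinic acid lay between those of water and MNA, though against water nicotinic acid did not pass (0.30, edgeR adjusted p = 0.158). The nitrilase family gene nit-1 was at 1.71, 2.03 and 1.93 against 6.45, 6.07 and 3.82 CPM (1.53, SE 0.22, edgeR adjusted p = 0.0029).

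The other members were dhs-8 (1.81), the glutathione peroxidase gene gpx-1 (0.70) and wdr-23 (0.22), which encodes a negative regulator of SKN-1 and lost its call without nicotinic acid replicate 1 or 2 or MNA replicate 1 or 2 (highest adjusted p = 0.197 in edgeR). skn-1 itself was at 285, 293 and 315 CPM with nicotinic acid and 315, 312 and 305 CPM with MNA, with a log2 fold change of 0.06 (95% interval -0.05 to 0.17). The superoxide dismutase gene sod-1 was at 116, 109 and 116 against 141, 139 and 128 CPM (0.26, SE 0.05, edgeR adjusted p = 0.0184). This call did not hold without nicotinic acid replicate 2 or 3 or MNA replicate 1 or 2 (highest adjusted p = 0.137 in edgeR). The mitochondrial sod-3, a common reporter of the insulin pathway factor DAF-16, was at 3.21, 3.15 and 3.22 with nicotinic acid and 1.64, 1.93 and 2.77 CPM with MNA, and did not pass (-0.59, 95% interval -1.08 to -0.10, edgeR adjusted p = 0.263). Water was at 1.12, 1.82 and 1.03 CPM. Against water sod-3 passed for nicotinic acid (1.27, edgeR adjusted p = 0.012) and did not pass for MNA (0.69, edgeR adjusted p = 0.137). daf-16 was at -0.04 (95% interval -0.15 to 0.07).

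**Figure D4:**
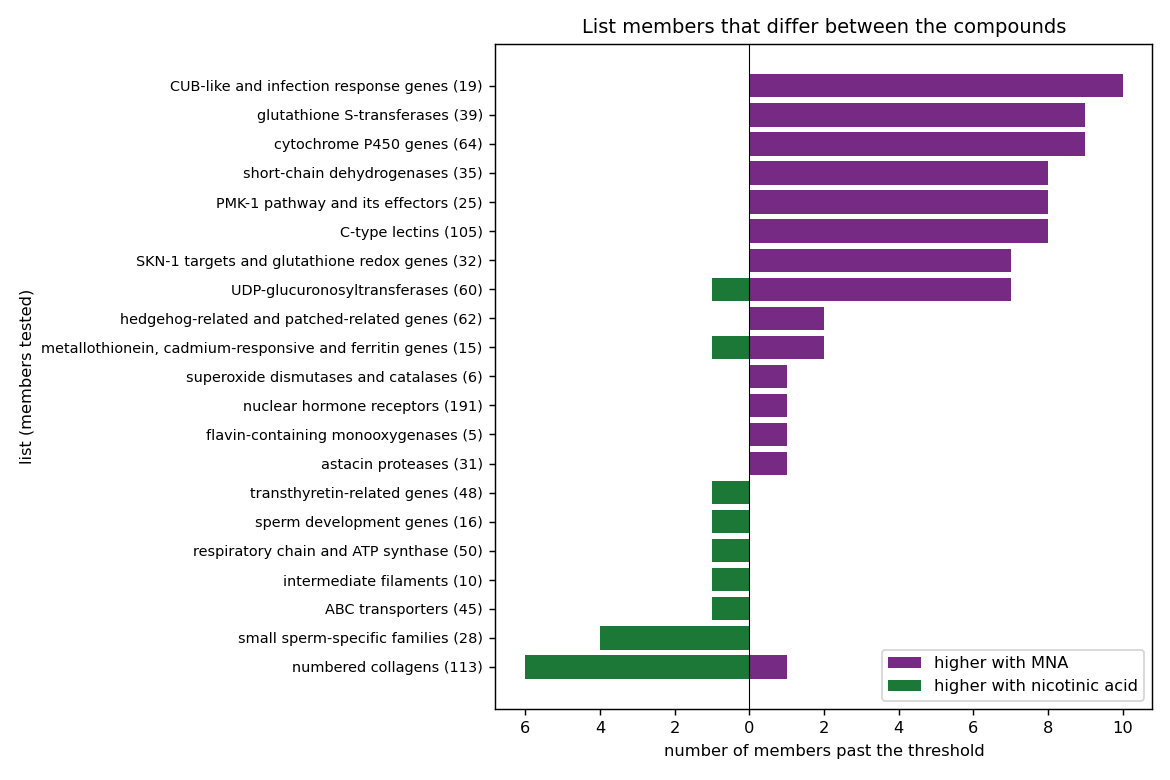
Bars count the members of each list past the threshold, to the right for genes higher with MNA and to the left for genes higher with nicotinic acid, with the number of members tested in brackets; lists with no such member are not drawn, and a gene can sit in more than 1 list. Infection response genes (10), glutathione S-transferases (9) and cytochrome P450 genes (9) reach furthest to the right, numbered collagens (6) and small sperm-specific families (4) furthest to the left.

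Infection response genes had more members past the threshold than any other list. Of 19 genes of the CUB-like and infection response list, 10 were higher with MNA and 0 were higher with nicotinic acid, against 1.1% of all genes tested; the median was 0.68, and DESeq2 called 10 and 0. At an unadjusted p below 0.05 the counts were 12 and 0. irg-6 (C32H11.1), an infection response gene, was at 0.273, 0.481 and 0.386 CPM with nicotinic acid, 16, 19.2 and 5.78 CPM with MNA and 0.539, 0.549 and 0.552 CPM with water (5.19, SE 0.54, edgeR adjusted p = 0.0029). C32H11.4 was at 1.57, 1.23 and 1.09 against 33.5, 32.3 and 15.6 CPM, with water at 1.44, 1.44 and 1.69 CPM (4.38, SE 0.33, edgeR adjusted p = 0.00054). F55G11.2 had the smallest p of the list, at 2.52, 3.37 and 2.73 against 13, 17 and 10.8 CPM (2.26, SE 0.18, edgeR adjusted p = 8.85e-05). These genes were low in all nicotinic acid and water libraries.

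The remaining 7 were irg-3 (2.04), dod-24 (1.95), irg-5 (1.85), irg-4 (1.58), dod-17, K08D8.5 (0.68) and mbug-1 (0.65). Without nicotinic acid replicate 1 the list had 6 members past the threshold, and 4 when the 6 compound libraries were fitted alone, where edgeR gave irg-6 an adjusted p of 0.0548 and dod-24 one of 0.056. irg-4 lost its call without nicotinic acid replicate 1 or 3 (highest adjusted p = 0.062 in edgeR), irg-5 without any 1 nicotinic acid library, MNA replicate 2 or water replicate 3 (0.105), K08D8.5 without nicotinic acid or MNA replicate 1 or 2 (0.148) and mbug-1 without those or water replicate 3 (0.179). F55G11.2, mbug-1 and dod-17 follow each other on chromosome IV, and dct-17, F35E12.6 and irg-5 on chromosome V. K08D8.5 was at 4.84, 5.24 and 5.98 CPM with nicotinic acid, 8.09, 9.99 and 7.77 CPM with MNA and 9.48, 8.61 and 9.09 CPM with water, so its water libraries lay with MNA.

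Of 25 genes of the PMK-1 pathway and its effectors, an overlapping list built around the p38 kinase of intestinal immunity, 8 were higher with MNA and 0 were higher with nicotinic acid (median 0.21). At an unadjusted p below 0.05 the counts were 13 and 0, and DESeq2 called 9 and 0. The kinase gene pmk-1 itself was at 17, 20 and 17.2 CPM with nicotinic acid and 18.3, 18.7 and 17.9 CPM with MNA (0.02, 95% interval -0.17 to 0.22, a value whose sign changed without nicotinic acid replicate 1 or 3). The smallest p was that of catp-3 (C09H5.2), which encodes an ion pump, at 24.5, 23.5 and 27.2 CPM with nicotinic acid and 43, 43.2 and 33.7 CPM with MNA (0.67, SE 0.10, edgeR adjusted p = 0.00392). Water was above both compounds, at 51.8, 54.6 and 48.6 CPM. Against water catp-3 fell by 1.04 on the log2 scale with nicotinic acid (edgeR adjusted p = 0.000478) and by 0.37 with MNA (edgeR adjusted p = 0.0316). The protease gene asp-12 had the same order, with 19, 14.6 and 20.1 CPM in nicotinic acid, 23.6, 27.5 and 25.4 CPM in MNA and 29.9, 33.4 and 33.4 CPM in water, and lost its call without 7 of the 9 libraries, nicotinic acid replicate 3 and water replicate 1 being the exceptions (highest adjusted p = 0.231 in edgeR). Without nicotinic acid replicate 1 only 2 members of the list passed, 4 without nicotinic acid replicate 2 or MNA replicate 1, 3 without MNA replicate 2, and 4 with the 6 compound libraries alone.

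Among 105 C-type lectins tested, of 265 listed, 8 were higher with MNA and 0 were higher with nicotinic acid, with a median of -0.03. At an unadjusted p below 0.05, 18 were higher with MNA and 10 with nicotinic acid, against 7.2% and 6.36% of all genes tested, and DESeq2 called 10 and 2. clec-143 (ZK673.9) was at 0.273, 0.107 and 0.29 CPM with nicotinic acid, near the detection floor, and at 5.56, 5.01 and 2.56 CPM with MNA (4.17, 95% interval 3.35 to 4.98, edgeR adjusted p = 0.000223). clec-174 was at 0.205, 0.588 and 0.483 against 4.38, 3.52 and 2 CPM (2.99, SE 0.36, edgeR adjusted p = 0.000964). The others were clec-74, clec-9, clec-3, clec-210, clec-72 and clec-67, from 0.72 to 2.82, and 5 lectins passed without MNA replicate 1, where clec-9 was lost (adjusted p = 0.0556 in edgeR). In clec-143 and clec-9 every nicotinic acid library lay below the limit of the filter on low counts, 0.375 CPM, and every MNA library above it. Such genes could enter the test through the MNA libraries, so the count over lectins tested is no support for a direction. clec-210 and clec-67 lost their calls without nicotinic acid or MNA replicate 1 or 2 (highest adjusted p = 0.105 and 0.197 in edgeR). Of 11 lysozymes and 14 epidermal antimicrobial peptide genes 0 passed in either direction (edgeR); 2 lysozymes and 3 of the peptide genes were below an unadjusted p of 0.05, and DESeq2 called 1 and 0.

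Other genes with large values higher with MNA were F49E12.10, with no named function here, at 1.54, 1.98 and 1.67 against 94.7, 85 and 39 CPM (5.42, SE 0.41, edgeR adjusted p = 0.00195), and gba-2 (C33C12.8), which encodes a glucosylceramidase, at 2.66, 2.62 and 3.64 against 45.4, 40.4 and 25.8 CPM (3.62, SE 0.27, edgeR adjusted p = 0.00054). Of the 15 genes drawn in the plot of genes higher with MNA, 14 kept their call in each of the 9 fits without 1 library; cyp-29A2 was the exception. The cadmium-responsive gene cdr-6 was at 35.8, 34 and 35.4 against 103, 98.4 and 67.1 CPM (1.35, SE 0.15, edgeR adjusted p = 0.00378). Its relative cdr-4 was at 34.2, 38.3 and 36.7 against 58.8, 50.8 and 49 CPM, with water in between at 51.5, 41.4 and 46.3 CPM (0.54, SE 0.09, edgeR adjusted p = 0.00846). In the same list of 15 metal genes the ferritin gene ftn-2 was higher with nicotinic acid (-0.31, edgeR adjusted p = 0.0308), lost without nicotinic acid replicate 1 or 3 or MNA replicate 1 or 2 (highest adjusted p = 0.194 in edgeR).

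The patched-related membrane protein genes ptr-14 and ptr-11, relatives of the hedgehog receptor, were higher with MNA. They were 2 of 62 hedgehog-related and patched-related genes (median 0.26), against 1.1% of all genes tested. At an unadjusted p below 0.05, 21 of the 62 were higher with MNA and 3 with nicotinic acid (7.2% and 6.36% of all genes tested). ptr-14 was at 13.6, 14.3 and 13 against 21.5, 24.2 and 18.7 CPM (0.66, SE 0.10, edgeR adjusted p = 0.00597). The value of ptr-11 was 0.72 (SE 0.13), and its call was lost without nicotinic acid replicate 3 or MNA replicate 1 or 2 (highest adjusted p = 0.0967 in edgeR). The list had 4 members past the threshold without MNA replicate 3 or water replicate 1, 6 with the 6 compound libraries alone and 6 in DESeq2. The astacin protease gene nas-8 (1.11), 1 of 31, lost its call without any 1 nicotinic acid library, MNA replicate 1 or 2 or water replicate 3 (highest adjusted p = 0.279 in edgeR). The nuclear hormone receptor gene nhr-11 (0.90), 1 of 191, lost its call without nicotinic acid replicate 3 or MNA replicate 2 (highest adjusted p = 0.0813 in edgeR). The share of all genes tested was 1.1%. Below an unadjusted p of 0.05, 9 astacins were higher with MNA and 0 with nicotinic acid, and DESeq2 called 2 and 0. For the receptors the unadjusted counts were 11 and 13, and DESeq2 called 1 and 2.

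Genes of NAD metabolism, the pathway that both compounds border on, were not among the calls. Of 17 genes of NAD synthesis and salvage 0 passed in either direction in edgeR or DESeq2, 4 were below an unadjusted p of 0.05, and the values ran from -0.40 in kmo-1 to 0.33 in nadk-1. The nicotinamidase gene pnc-1, whose product turns nicotinamide into nicotinic acid, was at 27.6, 26.7 and 28.2 CPM with nicotinic acid and 20.7, 23.1 and 25.3 CPM with MNA (-0.26, 95% interval -0.42 to -0.09, edgeR adjusted p = 0.134). Its libraries did not overlap, with water at 24.7, 25 and 25.6 CPM. nprt-1, the nicotinic acid phosphoribosyltransferase gene and first step of the Preiss-Handler pathway, was at 89.5, 95 and 93.4 against 89.6, 87.2 and 87.4 CPM (-0.07, 95% interval -0.17 to 0.03). The NAD synthetase gene qns-1 was at 0.03 (95% interval -0.07 to 0.14), with the sign changed without MNA replicate 2.

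Nicotinamide methylation, sirtuins and MNA oxidation, a list of 8 genes, had 0 past the threshold in edgeR or DESeq2 and 0 below an unadjusted p of 0.05, with values from -0.23 to 0.22. anmt-1 (B0303.2), a methyltransferase gene for nicotinamide, was at 1.98, 2.67 and 2.16 CPM with nicotinic acid, 2.4, 1.93 and 2.49 CPM with MNA and 2.34, 2.2 and 2.65 CPM with water. The log2 fold change of anmt-1 was 0.02, with a 95% interval of -0.38 to 0.41, and the sign changed without nicotinic acid replicate 1 or 3 or MNA replicate 1 or 3. gad-3 (B0222.9), an aldehyde oxidase family gene, was at 16.7, 20.7 and 17.1 against 16.7, 15.7 and 18 CPM (-0.10, 95% interval -0.40 to 0.20). sir-2.1 (R11A8.4), a sirtuin gene, was at 89.2, 88.7 and 89.1 against 86.5, 87.5 and 85.9 CPM (-0.04, 95% interval -0.13 to 0.05). An interval that includes 0 does not show that levels were equal between the compounds.

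Of 18 genes of the methionine cycle, which supplies the methyl donor, 0 passed in edgeR, 6 were below an unadjusted p of 0.05, all higher with nicotinic acid, against 6.36% of all genes tested, and DESeq2 called 2. The lowest values were those of cth-1 at -0.88 and sams-5 at -0.85 (edgeR adjusted p = 0.204 and 0.0511). In the propionate genes edgeR called 0 of 15, 6 were below an unadjusted p of 0.05 and DESeq2 called 5, all higher with nicotinic acid, where all genes tested had 6.36% and 0.965%. Of 50 respiratory chain and ATP synthase genes only the cytochrome c gene cyc-2.2 (ZC116.2) passed, at 1.3, 0.588 and 0.515 CPM with nicotinic acid and 0.126, 0.145 and 0.105 CPM with MNA. These MNA values rest on 3, 4 and 3 counts and those of water on 2, 1 and 1, and the 95% interval of the log2 fold change was -3.71 to -1.60 (edgeR adjusted p = 0.0171). Only the nicotinic acid libraries reached the limit of the filter on low counts, 0.375 CPM. The gene was thus tested only through the group where it was high, and the call is no support for a direction. Nicotinic acid replicate 1 was the highest library, and without it, or without MNA replicate 1 or 2, the call was lost (highest adjusted p = 0.0956 in edgeR).

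Collagens and sperm families were among the genes higher with nicotinic acid. The cuticle collagen gene col-88 (W05G11.3) was at 8.53, 3.1 and 4.76 CPM with nicotinic acid, 1.01, 1.34 and 1.61 CPM with MNA and 0.494, 1.14 and 0.626 CPM with water (-2.05, SE 0.38, edgeR adjusted p = 0.0297). Nicotinic acid replicate 1 was the highest library by far, and all 3 lay above MNA and water. The collagen col-60 (F22D6.10) had the same pattern, at 7.57, 2.89 and 3.76 against 1.39, 1.2 and 1.37 CPM (-1.87, SE 0.39, edgeR adjusted p = 0.0487). A more even example, col-147 (T06E4.4), was at 17.6, 18.6 and 21.1 with nicotinic acid, 11.9, 9.48 and 14.2 with MNA and 11.1, 11.1 and 12.2 CPM with water (-0.69, SE 0.13, edgeR adjusted p = 0.0175). The summed level of 5 epidermis markers, none of them at 0, was 585, 540 and 506 CPM with nicotinic acid, 457, 473 and 495 CPM with MNA and 486, 537 and 473 CPM with water. By gene, rol-6 and dpy-7 of these markers went the other way, with log2 fold changes of 0.89 and 0.34. The marker sum did not overlap between the compounds, as held for 9.3% of all genes tested with nicotinic acid higher. Its closest libraries were at 506 and 495 CPM, and the water libraries fell within both ranges. The markers include the collagens col-19, rol-6 and dpy-7, so the sum is not separate from collagen levels. Its part in the collagen differences was not tested.

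Of 113 numbered collagens tested, 6 were higher with nicotinic acid and 1, col-33 at 1.63, was higher with MNA (0.315% and 1.1% of all genes tested). The median was -0.18. At an unadjusted p below 0.05, 38 were higher with nicotinic acid and 18 with MNA (6.36% and 7.2% of all genes tested), and DESeq2 called 22 and 3. The other members were col-176 (-0.92), col-94 (-0.57) and col-166 (-0.25). The count higher with nicotinic acid was 3, 2 and 3 without nicotinic acid replicate 1, 2 and 3, 0 without MNA replicate 1 or 2, 11 without MNA replicate 3 and 22 in DESeq2. col-33 lost its call without any 1 nicotinic acid library, MNA replicate 1 or 2 or water replicate 3 (highest adjusted p = 0.25 in edgeR). The furrow collagens, which shape the grooves of the cuticle, had 0 of 6 past the threshold in edgeR and DESeq2 and 3 below an unadjusted p of 0.05, with values from 0.25 to 0.57, all on the MNA side. The other body shape collagens had 0 of 15 in both tools and a median of 0.6, with 6 on the MNA side and 4 on the nicotinic acid side below an unadjusted p of 0.05. Their values ran from -1.68 in bli-2, with bli-6, rol-1 and bli-1 at -1.66, -1.60 and -1.35, to 0.89 in rol-6. In bli-2, bli-6, rol-1 and bli-1 nicotinic acid replicate 1 was the highest library by far. For bli-2 it was at 7.78 CPM, against 2.03 and 2.09 CPM in nicotinic acid replicates 2 and 3. dpy-18, a gene for a collagen prolyl hydroxylase chosen after its values were seen, was at 35.9, 42.5 and 34.9 against 57.5, 54.3 and 46.8 CPM (0.49, edgeR adjusted p = 0.0171), a difference that did not pass without nicotinic acid replicate 1 or 3 or MNA replicate 1 or 2 (highest adjusted p = 0.116 in edgeR).

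Sperm families were the other list with several members on this side. Of 88 small sperm-specific genes only 28 passed the filter on low counts, and 4 of these were higher with nicotinic acid. All 3 nicotinic acid libraries were at or above the filter's 0.375 CPM for 25 of the 28, the MNA libraries for 18 and the water libraries for 18, so a gene low with MNA could pass through the nicotinic acid libraries and the count over those that passed is no support for a direction. nspe-1 and nspe-2 were at -1.56 and -1.67, the latter at 2.05, 2.08 and 1.83 CPM with nicotinic acid, 0.295, 0.472 and 1.05 CPM with MNA and 0.944, 1.65 and 1.21 CPM with water (SE 0.35, edgeR adjusted p = 0.0332). ssp-34 was at 1.3, 0.695 and 0.579 against 0.0843, 0.182 and 0.14 CPM, the MNA values from 2, 5 and 4 counts and water at 1, 3 and 3 counts (95% interval -3.61 to -1.61, edgeR adjusted p = 0.0125). ssp-35 was the remaining member, with 1.06, 0.428 and 0.515 against 0.126, 0.145 and 0.21 CPM. The count was 1, 2 and 2 without nicotinic acid replicate 1, 2 and 3, 0 without MNA replicate 1 or 2, 2 without water replicate 1 and 1 without water replicate 3. In whole animals fewer cells of a type and less RNA per cell cannot be told apart.

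The summed level of the 88 small sperm genes was 71.4, 48.6 and 46.8 CPM with nicotinic acid, 33.1, 34.1 and 43.5 CPM with MNA and 42, 40.7 and 37.1 CPM with water. Of 35 major sperm protein genes, the defining transcripts of sperm production, 6 were at 0 in all libraries and none reached the test. Their sum was 6.45, 2.19 and 1.51 CPM with nicotinic acid, 1.22, 1.13 and 0.91 CPM with MNA and 0.18, 0.507 and 0.478 CPM with water, so nicotinic acid replicate 1 held the most. The ferlin gene fer-1 is needed for the maturation of sperm. It was the only 1 past the threshold of 16 sperm development genes that passed the filter, of 26 listed (0.315% of all genes tested). fer-1 was at 1.5, 1.07 and 1.29 against 0.59, 0.617 and 0.595 CPM (-1.11, SE 0.24, edgeR adjusted p = 0.0397). Its call was lost in DESeq2 and without any 1 of the nicotinic acid or MNA libraries or water replicate 3 (highest adjusted p = 0.197 in edgeR). At an unadjusted p below 0.05, 7 of the 16 were higher with nicotinic acid and 0 with MNA (6.36% and 7.2% of all genes tested). All nicotinic acid libraries were at or above the filter's 0.375 CPM for 15 of the 16, and all MNA libraries for 11. Genes low with MNA could thus pass through the nicotinic acid libraries, so these counts are no support for a direction. The part of these sperm transcripts in the other genes higher with nicotinic acid was not tested. For oocyte and eggshell genes edgeR and DESeq2 called 0 of 31, and 6 were below an unadjusted p of 0.05, with 28 of 31 above 0 and none beyond -0.07 or 0.16, and their sum ran from 25000 to 26400 CPM with nicotinic acid and from 25900 to 28500 CPM with MNA.

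**Figure D5:**
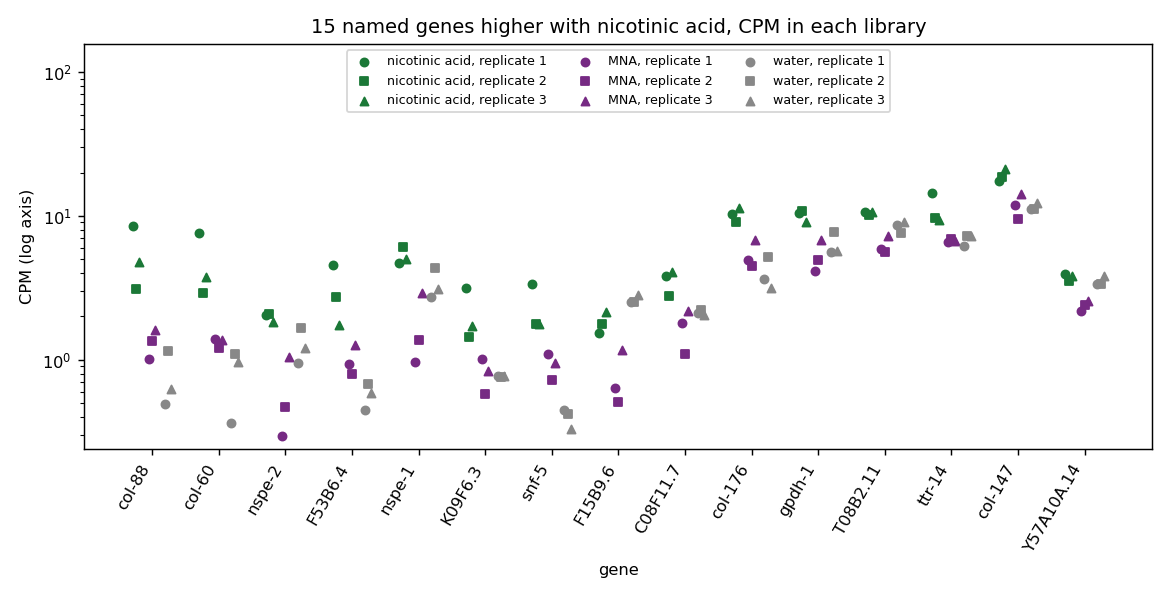
CPM on a log axis of the 15 named genes with the largest log2 fold changes higher with nicotinic acid, 1 point per library, with the groups by colour and the replicates by shape. Levels lie mostly below 20 CPM, nicotinic acid replicate 1 (green circle) stands high for col-88, col-60 and F53B6.4, and the water libraries fall on either side of MNA.

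Genes outside these families included gpdh-1 (F47G4.3), a glycerol-3-phosphate dehydrogenase gene known from the response to high salt, at 10.4, 10.8 and 9.01 CPM with nicotinic acid, 4.13, 4.94 and 6.76 CPM with MNA and 5.57, 7.68 and 5.67 CPM with water (-0.92, SE 0.18, edgeR adjusted p = 0.0217). snf-5, of the sodium-dependent neurotransmitter transporter family, was at 3.34, 1.76 and 1.77 against 1.1, 0.726 and 0.945 CPM, with water at 0.449, 0.422 and 0.331 CPM below both (-1.33, SE 0.29, edgeR adjusted p = 0.0405). T08B2.11 was the steadiest of the 15, at 10.6, 10.2 and 10.7 against 5.9, 5.63 and 7.28 CPM (-0.74, SE 0.12, edgeR adjusted p = 0.00708), and lost its call only without MNA replicate 1 or 2 (highest adjusted p = 0.0582 in edgeR).

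The transthyretin-related gene ttr-14, 1 of 48, was at -0.73. The intestinal filament gene ifc-1, 1 of 10 intermediate filament genes, was at -0.44 (SE 0.09, edgeR adjusted p = 0.0408), a call kept only without MNA replicate 3 (highest adjusted p = 0.201 in edgeR). The share of all genes tested was 0.315%. Below an unadjusted p of 0.05 were 2 of the 48 and 3 of the 10, all higher with nicotinic acid (6.36% of all genes tested). DESeq2 called 1 and 2, also higher with nicotinic acid. F15B9.6 was higher in water than with either compound, at 2.52, 2.53 and 2.83 CPM against 1.54, 1.76 and 2.16 with nicotinic acid and 0.632, 0.509 and 1.16 with MNA (-1.23, SE 0.28, edgeR adjusted p = 0.0471). The other named genes were F53B6.4 (-1.59), K09F6.3 (-1.40), C08F11.7 (-1.08) and Y57A10A.14 (-0.66). Each of the 15 genes drawn in the plot of genes higher with nicotinic acid lost its call without MNA replicate 1 and without MNA replicate 2, where 1 gene in all passed. Without nicotinic acid replicate 1, 12 of the 15 lost their call (col-88, col-147 and T08B2.11 kept it), 8 did without replicate 2 and 10 without replicate 3. Leaving out MNA replicate 3 ended 4 of the calls, and leaving out water replicate 1, 2 or 3 ended 2, 4 and 9 (highest adjusted p = 0.271 in edgeR, for col-60).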

How the data were processed

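RNA was sequenced from 9 libraries of whole adult worms, 3 per group, with the groups taken from the sample titles. The submitters' processing notes name CASAVA, TopHat 1.4.1 and HTSeq; for the genome build, annotation and counting settings, nothing is given in the sources used here. Counts were deposited as whole numbers for each gene, without normalization. The deposited RPKM values imply gene lengths below 100 bases for 1854 of 13351 protein-coding genes tested, so RPKM was used only for that check and levels were not compared between genes. Symbols came from RefSeq for 44080 of 45461 entries (99.3% of counts).

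The filter filterByExpr (grouped, minimum count 10) left 13985 genes. One robust edgeR 4.0.16 quasi-likelihood model (R 4.3.3, TMM factors 0.963 to 1.03, common biological coefficient of variation 0.0821) was fitted to all 9 libraries with a term for group and contrasts between groups; only 1 pair of compounds was compared. Group values and folds come from this fit, CPM from the counts and TMM factors. Intervals are 95% intervals of the model.

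Named genes were the 15 largest differences in each direction with an adjusted p below 0.05, at least 1 CPM on average and no overlap, the 2 members of each list with calls that had the smallest p, and 12 set genes; others are named to complete a list count. The members and the 44 lists were chosen with earlier results of these data known. On simulated data with these depths and 13985 genes, 52.2% of genes changed by 1.5-fold, 76.1% by 2-fold and 93.9% by 4-fold were recovered, and 8.07% of calls were false. The simulated libraries were independent and all MNA libraries were shifted alike. In the data MNA replicate 3 stood nearer to nicotinic acid, so these shares need not hold for the real calls. Alternatives were DESeq2 1.42.0, RLE scaling, no low count filter, a replicate block, the 6 compound libraries alone, and leaving out each library; leaving out nicotinic acid replicate 1 and MNA replicate 3 together was chosen after seeing the data.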

Additional observations from a re-analysis of the deposited data

How the results depend on the processing

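The 154 genes higher with MNA became 259 in DESeq2, 281 without the low count filter and 283 without nicotinic acid replicate 1 and MNA replicate 3 together; the 44 higher with nicotinic acid became 92 with the replicate block, 135, 150 and 215. RLE scaling gave 152 and 44, and the 6 compound libraries alone 169 and 47. Leaving out each library gave 75 to 258 and 1 to 160. Listed genes numbered 66 and 17: 103 without the 2 libraries, and on the nicotinic acid side 32 with the block, 60 in DESeq2, 41 without the filter and 73 without the 2 libraries; ranges over single libraries were 43 to 85 and 0 to 56. Against water, nicotinic acid had 272 genes higher and 475 lower, 144 and 244 in a fit of those 6 libraries alone, and 475 higher without the filter; over single libraries they were 88 to 280 and 166 to 558, and for MNA 228 to 565 and 141 to 630. The number of genes with water near nicotinic acid ran from 99 to 107, and on the other side from 22 to 24. The block used the replicate numbers of the titles. Deviations of same-numbered nicotinic acid and MNA libraries correlated at 0.0272, 0.0198 and 0.107, and those with same-numbered water libraries ran from -0.201 to 0.159. Differently numbered libraries were not compared in this way, so these values cannot tell whether same-numbered samples shared a batch. With the block 193 genes were higher with MNA. Genes near 0 changed sign: anmt-1 (-0.074 to 0.132 over single libraries, also -0.018, -0.024 and -0.056, and -0.161 without the 2), qns-1 (-0.005 to 0.055), pmk-1 (-0.017 to 0.097, -0.013, and -0.014 without the 2) and vit-2 (-0.084 to 0.115, and -0.071 without the 2). The cause of these changes was not tested. All 5 alternatives with no library left out kept 108 of the 154 calls and 27 of the 44. Depth limits genes near 0.1 CPM, such as ssp-34 and cyc-2.2, where MNA and water libraries held 1 to 5 counts.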

Other observations

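The genes acox-1.1, daf-22 and acox-1.5, higher with MNA, were chosen after their values were seen and belong to no list tested. acox-1.1, an acyl-CoA oxidase gene of the route that also makes ascaroside pheromones, was at 44.4, 38.4 and 39.3 CPM with nicotinic acid, 121, 121 and 71.2 CPM with MNA and 37.1, 37.6 and 33 CPM with water (log2 fold change 1.35, edgeR adjusted p = 0.0318). The thiolase gene daf-22, which acts later in that route, was at 65.3, 58 and 58.4 against 104, 104 and 77.6 CPM (0.65, edgeR adjusted p = 0.0171), and acox-1.5 was at 0.33 (edgeR adjusted p = 0.05 after rounding, lost without 7 of the 9 libraries). acox-1.1 lost its call without any 1 of 8 libraries, MNA replicate 3 being the exception (highest adjusted p = 0.114 in edgeR), and daf-22 without nicotinic acid replicate 2 or 3 or MNA replicate 1 or 2 (highest adjusted p = 0.0767 in edgeR). The aldehyde dehydrogenase genes alh-5 (1.60) and alh-4 (1.02), the cytochrome b5 gene cytb-5.1 (0.55) and cat-4 (0.50), the gene for GTP cyclohydrolase, were also higher with MNA. Of these, alh-5, cytb-5.1 and cat-4 kept their calls in all 9 fits without 1 library, and alh-4 lost its call without any 1 nicotinic acid library, MNA replicate 2 or water replicate 3 (highest adjusted p = 0.106 in edgeR).

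The ATPase gene catp-2 and its neighbour C02E7.10 on chromosome V, also chosen after their values were seen, had large differences at low levels. catp-2 was at 0.136, 0.16 and 0.0643 CPM with nicotinic acid, at or near the floor, and at 3.58, 2.25 and 1.23 CPM with MNA. C02E7.10 was at 0.0682, 0.107 and 0.0965 against 1.9, 1.49 and 1.05 CPM. For both genes every nicotinic acid library lay below the filter's 0.375 CPM and every MNA library above it. They could thus enter the test through the group where they were high. In the gene order of the reference, 29 of 151 genes higher with MNA (19.2%) lay next to another such gene, while 2.19% of all tested genes with a place lay next to one. For the genes higher with nicotinic acid it was 2 of 44 (4.55%) against 0.659%. Neighbours share family membership and may share reads, so these shares are descriptions. Chromosome V held 57 of the genes higher with MNA among 2727 tested (2.09%), chromosome IV 27 of 2220 (1.22%) and chromosome III, the lowest, 12 of 2175 (0.552%).

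Over all genes tested, 13.6% were below an unadjusted p of 0.05 and DESeq2 called 2.82%. Lists with 0 members past the threshold in edgeR included chaperones (58 tested, 3 below an unadjusted p of 0.05, 1 called by DESeq2), neuropeptides (89, 4 and 0), insulin-like peptides (23, 1 and 0), the insulin to DAF-16 core (17, 0 and 0), DAF-16-activated genes (14, 4 and 2), cytosolic ribosomal proteins (63, 0 and 0), moulting genes (29, 3 and 2), cuticlins (28, 3 and 0), vitellogenins (6, 0 and 0), desaturases and elongases (14, 4 and 2), neuron markers (20, 1 and 0) and gut markers (15, 4 and 1). The 4 desaturases and elongases and the 4 gut markers below an unadjusted p of 0.05 were all higher with nicotinic acid. The 3 moulting genes below it were all higher with MNA. Of 41 muscle genes edgeR called 0. Below an unadjusted p of 0.05 were 9, all higher with nicotinic acid (6.36% of all genes tested), with 2 called by DESeq2 and 6 of 41 above 0. The summed level of 4 body wall muscle markers was 1800, 2380 and 2110 CPM with nicotinic acid and 1810, 1910 and 2000 CPM with MNA.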
